A study of Mus musculus with 23 samples.

Results

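The genes described here are 31 members of cholesterol synthesis, uptake and sterol sensing, taken by symbol from the raw count table of 18876 genes: 18 enzymes of synthesis, 7 genes of sterol sensing and SREBP control, and 6 genes of lysosomal release, transfer and esterification. All 31 passed the filter on low counts, which left 18759 genes in the test. RNA was sequenced from cells that carry CD11b, an integrin found on microglia and on further myeloid cells, isolated with magnetic beads from both hippocampi of female mice on a mixed 129S;C57BL/6J background. Every mouse was Slc11a2 fl/fl and carried Cx3cr1 Cre-ERT2+/-, a Cre recombinase that tamoxifen activates in microglia and in other cells that express *Cx3cr1*, and was either WT or hemizygous for APP/PS1, a transgene pair that produces amyloid plaques in brain. Mice called KD here (KO in the sample titles) received 4 mg of tamoxifen per day by gavage on 5 days at 5 to 6 months of age, Control mice received corn oil, and all were collected at 15 to 18 months. The 22 libraries used comprised 6 Control WT, 6 Control APP/PS1, 5 KD WT and 5 KD APP/PS1. Tamoxifen and knockdown came together, and no arm received tamoxifen without floxed *Slc11a2*, so the effects of drug and allele cannot be told apart.

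Cells make cholesterol from acetyl-CoA through mevalonate, squalene and lanosterol, or take it up in lipoproteins that are broken down in lysosomes. When sterol in the endoplasmic reticulum is low, SCAP carries the SREBP transcription factors to the Golgi, where the proteases MBTPS1 and MBTPS2 release their active domain, and INSIG proteins hold the complex back when sterol is plentiful. In the adult brain, where plasma lipoproteins barely enter, most cholesterol is made locally, and microglia take in cholesterol-rich myelin and debris, release it through LIPA, NPC2 and NPC1 and store the excess as esters made by SOAT1.

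Sequencing assigned to genes between 31128643 and 54872491 reads per library. Levels are given as CPM, counts relative to the total of the library, with library sizes adjusted by the trimmed mean of M values (TMM). *Slc11a2*, the targeted gene, was not called lower in the libraries labelled KD (log2 fold change -0.04 in WT and 0.39 in APP/PS1 mice, adjusted p = 1 and 0.205, edgeR). The means were 35.1 ± 5.13 CPM in Control WT (SD, n = 6), 34.2 ± 4.76 in KD WT (n = 5), 43.2 ± 3.93 in Control APP/PS1 (n = 6) and 56.5 ± 13.5 in KD APP/PS1 (n = 5). With genotype, *Slc11a2* was higher in KD APP/PS1 than in KD WT libraries (0.72 ± 0.15, log2, SE, adjusted p = 0.00209). Among KD libraries it was also higher in those numbered 18 to 23 than in those numbered 1 to 4 (0.46, log2). KD APP/PS1 library 4 was at 37.8 CPM, within the KD WT range of 27.1 to 38.1 CPM. The count of *Slc11a2* covers the whole gene, so it does not show whether the floxed part was removed. The authors reported that expression over part of the *Slc11a2* exons was abolished in the knockdown microglia. They also reported knockdown by RT-qPCR over the same exons in microglia from all animals. Of 14 microglial markers, 13 were in the tested table and all had counts in every group, with a summed level between 41490 and 61680 CPM per library. The 10 markers of choroid plexus epithelium summed to 1004 and 1944 CPM in Control WT libraries 15 and 12, and to between 87.4 and 780.5 CPM in KD libraries 18 to 23. In the other libraries this sum was at most 51.1 CPM. Fold changes also moved with transcript length in some comparisons, and the values are given beside the results they touch.

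Compared per kilobase of the exons of the canonical transcript, the levels in Control WT libraries were led by the lysosomal genes. *Npc2*, whose product binds cholesterol inside the lysosome, had a mean of 261 CPM per kb, followed by *Lipa*, the lysosomal acid lipase, at 69.7 CPM per kb and *Npc1*, the membrane partner of NPC2, at 42.9 CPM per kb. *Ebp*, a sterol isomerase, came next at 42.3 CPM per kb, and this value and that of *Npc1* lay within the spread between libraries. The other 17 enzymes of synthesis lay between 0.245 CPM per kb for *Fdps* and 18.4 CPM per kb for *Msmo1*. The genes of SREBP control lay between 7.07 CPM per kb for *Srebf2* and 23.4 CPM per kb for *Mbtps2*.

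Promoter sequences were available from RefSeq (build GRCm38.p6) for 26 of the 31 genes, as windows from 250 bases before to 50 bases after a start site. *Fdps*, *Fdft1*, *Sqle*, *Stard4* and *Npc1* had no entry. The windows below are those of an early enzyme, a late enzyme, a sterol sensor and the cholesteryl ester hydrolase, the genes to which the results return. Capitals mark, on either strand, the core of the sterol regulatory element (TCACNCCAC), the CCAAT box to which the SREBP partner NF-Y binds (CCAAT) and the palindromic E-box (CACGTG). They lie on GRCm38.p6 at chr13:119690101-119690400 (plus strand, *Hmgcs1*), chr5:4104648-4104947 (minus strand, *Cyp51*), chr5:28071162-28071461 (plus strand, *Insig1*) and chr3:27182754-27183053 (plus strand, *Nceh1*), and each is written 5′ to 3′ along its gene.

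Hmgcs1: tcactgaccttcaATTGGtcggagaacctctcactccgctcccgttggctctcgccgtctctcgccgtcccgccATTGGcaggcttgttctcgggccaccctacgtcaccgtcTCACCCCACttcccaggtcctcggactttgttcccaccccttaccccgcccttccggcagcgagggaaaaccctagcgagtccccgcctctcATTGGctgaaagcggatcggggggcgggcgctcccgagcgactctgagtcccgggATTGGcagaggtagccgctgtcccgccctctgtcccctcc
Cyp51: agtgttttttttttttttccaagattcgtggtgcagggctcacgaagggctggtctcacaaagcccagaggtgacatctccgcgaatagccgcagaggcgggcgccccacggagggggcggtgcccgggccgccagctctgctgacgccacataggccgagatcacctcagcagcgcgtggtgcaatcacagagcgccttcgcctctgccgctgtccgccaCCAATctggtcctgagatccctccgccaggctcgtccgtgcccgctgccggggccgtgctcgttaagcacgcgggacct
Insig1: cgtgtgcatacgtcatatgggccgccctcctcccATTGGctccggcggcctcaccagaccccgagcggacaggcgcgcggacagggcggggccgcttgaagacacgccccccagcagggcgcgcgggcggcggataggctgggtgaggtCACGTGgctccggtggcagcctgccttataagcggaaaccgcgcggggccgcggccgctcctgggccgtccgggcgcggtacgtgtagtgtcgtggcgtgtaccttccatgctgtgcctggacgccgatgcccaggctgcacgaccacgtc
Nceh1: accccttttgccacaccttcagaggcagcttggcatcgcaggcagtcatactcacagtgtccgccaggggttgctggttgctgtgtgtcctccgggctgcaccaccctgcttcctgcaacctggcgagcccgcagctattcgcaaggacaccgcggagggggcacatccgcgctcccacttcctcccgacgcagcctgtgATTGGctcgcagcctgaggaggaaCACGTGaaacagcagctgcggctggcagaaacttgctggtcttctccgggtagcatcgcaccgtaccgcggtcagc

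Among the 34 windows of these 26 genes, TCACNCCAC occurred in 1, that of *Hmgcs1*, or 2.94%, against 1.24% of all 32851 windows in the table. CCAAT occurred in 23 of the 34 windows (67.6%), against 37.4% of all windows, and CACGTG in 7 (20.6%), against 7.15%. A CCAAT box was present in at least 1 window of 22 of the 26 genes and absent from those of *Acat2*, *Scap*, *Mbtps1* and *Mbtps2*. The GC box, a further motif that is not marked above, occurred in 27 of the 34 windows (79.4%), against 35.7% of all windows. The excess was thus not confined to the motifs marked above, and whether it is tied to sterol control was not tested. All of these counts are matches of letters in a window, not measured binding sites.

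The first comparison asked how the members differed with the APP/PS1 genotype in mice that received corn oil. In Control APP/PS1 against Control WT libraries, 17 of the 31 members were higher and 0 were lower at an adjusted p below 0.05 (edgeR quasi-likelihood test, Benjamini-Hochberg adjustment over all genes). Of all genes tested, 5.99% were called higher and 4.48% were called lower. The members called higher were *Hmgcs1*, *Pmvk*, *Idi1*, *Fdft1*, *Sqle*, *Cyp51*, *Msmo1*, *Sc5d* and *Dhcr7* of synthesis, *Srebf1*, *Srebf2* and *Insig1* of SREBP control, and *Stard4*, *Npc2*, *Lipa*, *Nceh1* and *Soat1*. The median log2 fold change was 0.56 over the 31 members and -0.02 over all genes, and 28 members had a value above 0. For 16 members every Control APP/PS1 library was above every Control WT library, which held for 5.33% of all genes. In bulk RNA, a higher level per cell and a larger share of cells that express a gene cannot be told apart.

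In the arm from acetyl-CoA to squalene, 4 of 8 enzymes rose. *Hmgcs1* (ENSMUSG00000093930, GRCm39 chr13:120151915-120170470, plus strand) makes HMG-CoA, the substrate of the rate-limiting reductase. Its lowest, median and highest levels were 27.9, 37.1 and 40.5 CPM in Control WT and 46.2, 53.4 and 59.2 CPM in Control APP/PS1 libraries. The ranges did not overlap, and the log2 fold change was 0.56 ± 0.12 (SE, adjusted p = 0.00367). *Idi1*, which isomerises the isoprenoid building block, ran from 4.09 through a median of 5.43 to 7.74 CPM in Control WT and from 9.06 through 10.4 to 15.6 CPM in Control APP/PS1 libraries. Again no library of one group reached into the other, with a log2 fold change of 1.06 ± 0.24 (SE, adjusted p = 0.00442). *Pmvk*, phosphomevalonate kinase, rose by 0.92 ± 0.23 (log2, SE, adjusted p = 0.00926) and *Fdft1*, squalene synthase, rose by 0.82 ± 0.17 (log2, SE, adjusted p = 0.00235), both with no overlap. The values for *Acat2*, *Mvk* and *Mvd* were 0.33, 0.28 and 0.48 on the log2 scale with adjusted p of 0.167, 0.513 and 0.19, although every Control APP/PS1 library was above every Control WT library for *Acat2*, which makes acetoacetyl-CoA in the cytosol.

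Several of these genes have copies or neighbours that can share reads. *Fdps*, farnesyl diphosphate synthase, was listed at 0 to 0.675 CPM in Control WT and 0.0485 to 0.405 CPM in Control APP/PS1 libraries, and 54.2% of the 50-base stretches of its canonical transcript also occur in other transcripts, mostly of processed pseudogenes. Its counts, and any fold change made from them, are therefore uncertain. The same share was 38.6% for *Acat2* and 25% for *Idi1*. The exons of *Fdft1* overlap those of *Ctsb*, a lysosomal protease gene on the other strand, over 34.1% of their length, and whether the counting used strand was not given in the sources used here. *Ctsb* itself rose by 1.21 ± 0.17 (log2, SE, adjusted p = 1.81e-05), from a mean of 1954 to 4529 CPM, and its part in the *Fdft1* value was not tested.

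In the arm from squalene to cholesterol, 5 of 10 enzymes rose and all 10 had a log2 fold change above 0. *Sqle* (ENSMUSG00000022351, GRCm39 chr15:59186869-59203043, plus strand) encodes squalene epoxidase, a rate-limiting step after the reductase. It was measured at 2.13, 3.38 and 8.37 CPM (lowest, median, highest) in Control WT and at 8.25, 11.1 and 17.1 CPM in Control APP/PS1 libraries. The groups overlapped only through Control WT library 12, the library with the highest choroid plexus sum. Control WT library 15, with a choroid plexus sum of 1004 CPM, had *Sqle* at 3.46 CPM. The log2 fold change of *Sqle* was 1.59 ± 0.40 (SE, adjusted p = 0.01) and 1.97 without that library.

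*Cyp51* (ENSMUSG00000001467, GRCm39 chr5:4123416-4154751, minus strand), lanosterol demethylase, was at 10.3, 13.1 and 16.9 CPM in Control WT and at 21.6, 27.9 and 33.6 CPM in Control APP/PS1 libraries. *Msmo1*, which oxidises methyl groups at a later stage, was at 38.4, 46.0 and 63.8 CPM in Control WT and at 72.2, 87.5 and 110.7 CPM in Control APP/PS1 libraries. Both genes had separate ranges, with log2 fold changes of 1.09 ± 0.17 (SE, adjusted p = 0.000102) and 0.92 ± 0.17 (SE, adjusted p = 0.000544). *Sc5d*, sterol C5-desaturase, rose by 1.10 ± 0.17 (log2, SE, adjusted p = 6.69e-05). *Dhcr7*, which completes cholesterol from 7-dehydrocholesterol, rose by 0.82 ± 0.12 (log2, SE, adjusted p = 4.52e-05), from a mean of 32.9 to 58.1 CPM. The enzymes between them did not pass the threshold: the log2 fold changes were 0.50 for *Lss*, 0.38 for *Tm7sf2*, 0.25 for *Nsdhl*, 0.56 for *Hsd17b7* and 0.20 for *Ebp*, with adjusted p from 0.152 to 0.464. The exons of *Cyp51* overlap those of 2 gene models on the other strand, chiefly *Akap9*, over 28.6% of their length, and *Akap9* had a log2 fold change of 0.22 ± 0.53 (adjusted p = 0.871). The plot of synthesis genes by library shows these levels.

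**Figure D1:**
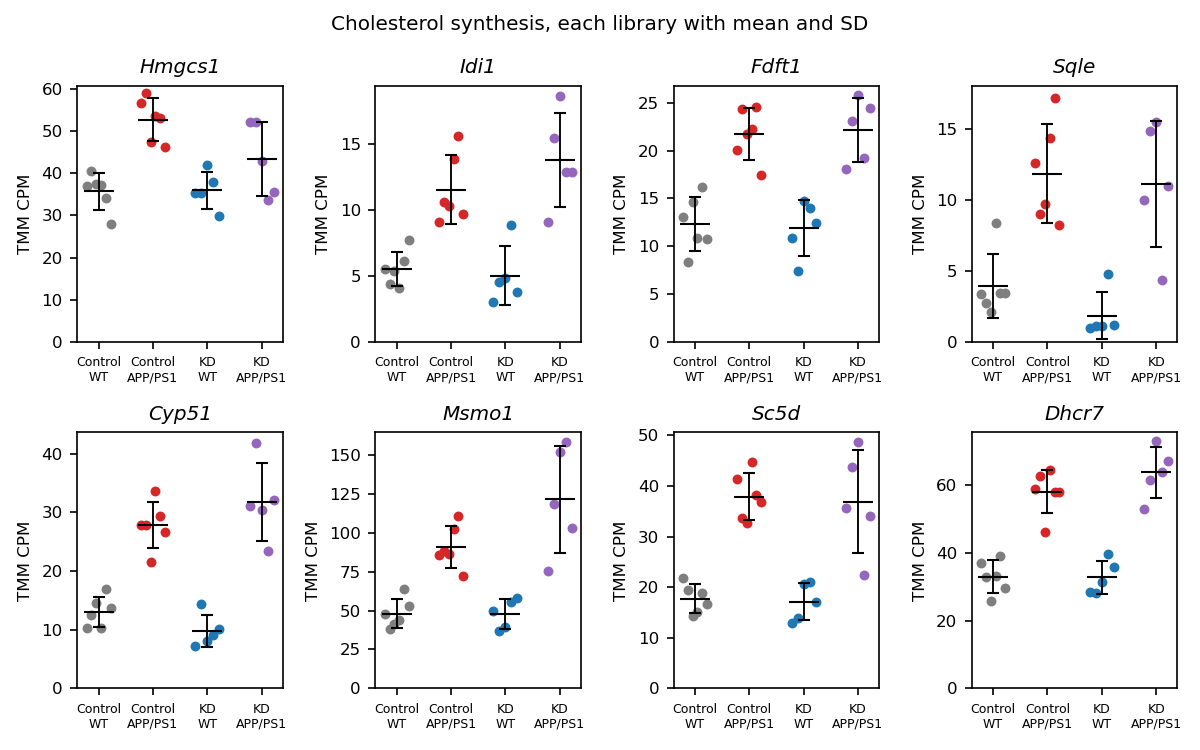
Levels of 8 cholesterol synthesis genes in TMM-scaled CPM (vertical axes, from 0) in the 6 Control WT, 6 Control APP/PS1, 5 KD WT and 5 KD APP/PS1 libraries. Each point is a library, and bars give the mean and SD. *Cyp51* in Control APP/PS1 libraries runs from 21.6 to 33.6 CPM, above every Control WT library, and for *Sqle* 1 library stands apart in each WT group.

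Of the 7 genes of SREBP control, 3 rose: both transcription factors and 1 INSIG. *Srebf2*, whose protein chiefly drives sterol genes, was at 24.8, 39.7 and 45.0 CPM (lowest, median, highest) in Control WT and at 61.6, 82.2 and 93.2 CPM in Control APP/PS1 libraries. The groups were separate and the log2 fold change was 1.13 ± 0.18 (SE, adjusted p = 8.93e-05). *Srebf1*, more tied to fatty acid synthesis, was at 30.0, 33.0 and 34.4 CPM and at 41.7, 61.1 and 66.8 CPM in the same groups, with a log2 fold change of 0.83 ± 0.15 (SE, adjusted p = 0.000392).

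*Insig1*, the anchor that is itself an SREBP target, was at 25.8, 32.4 and 46.5 CPM in Control WT and at 45.0, 68.3 and 110.3 CPM in Control APP/PS1 libraries, so that the ranges touched at their edge. Its log2 fold change was 1.12 ± 0.22 (SE, adjusted p = 0.00108). *Insig2*, its paralogue, had -0.11 ± 0.14 (log2, SE, adjusted p = 0.724). The escort *Scap* had 0.015 ± 0.16, and the Golgi proteases *Mbtps1* and *Mbtps2* had 0.25 ± 0.16 and -0.05 ± 0.10 (log2, SE), with adjusted p from 0.379 to 0.977. For *Scap* the approximate 95% interval was -0.29 to 0.32, and for *Mbtps2* it was -0.25 to 0.16.

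Of the 6 genes of lysosomal release, transfer and esterification, 5 rose, each with no overlap between the groups. *Nceh1* (ENSMUSG00000027698, GRCm39 chr3:27236975-27338764, plus strand), a hydrolase of cholesteryl esters outside the lysosome, had the largest change of all 31 members. Its levels were 25.1, 29.9 and 43.4 CPM (lowest, median, highest) in Control WT and 174, 187.5 and 255 CPM in Control APP/PS1 libraries. This was a 6.14-fold difference, or 2.62 ± 0.15 on the log2 scale (SE, adjusted p = 7.62e-11). *Soat1*, which makes the esters, was at 62.8, 93.3 and 108.7 CPM and at 178.5, 219 and 239 CPM, a log2 fold change of 1.21 ± 0.12 (SE, adjusted p = 1.93e-07). The gene that makes cholesteryl esters and a gene that cleaves them thus were both higher.

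*Lipa*, which cleaves esters inside the lysosome, was at 186, 198 and 235 CPM in Control WT and at 311, 339 and 379.8 CPM in Control APP/PS1 libraries, with a log2 fold change of 0.72 ± 0.09 (SE, adjusted p = 3.33e-06). *Npc2* was at 991, 1023 and 1103 CPM and at 1381, 1414 and 1500 CPM, with 0.45 ± 0.08 (SE, adjusted p = 0.000301). *Npc1* was at 172.6, 242 and 260.9 CPM in Control WT and at 189, 235 and 292.9 CPM in Control APP/PS1 libraries. The ranges overlapped, with 2 Control APP/PS1 libraries above every Control WT library, and its log2 fold change was 0.07 ± 0.16 (SE, adjusted p = 0.853, approximate 95% interval -0.23 to 0.37). *Stard4*, a cytosolic sterol carrier, rose by 0.83 ± 0.18 (log2, SE, adjusted p = 0.00325), from a mean of 9.28 to 16.5 CPM. The plot of control and uptake genes by library shows the separation.

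**Figure D2:**
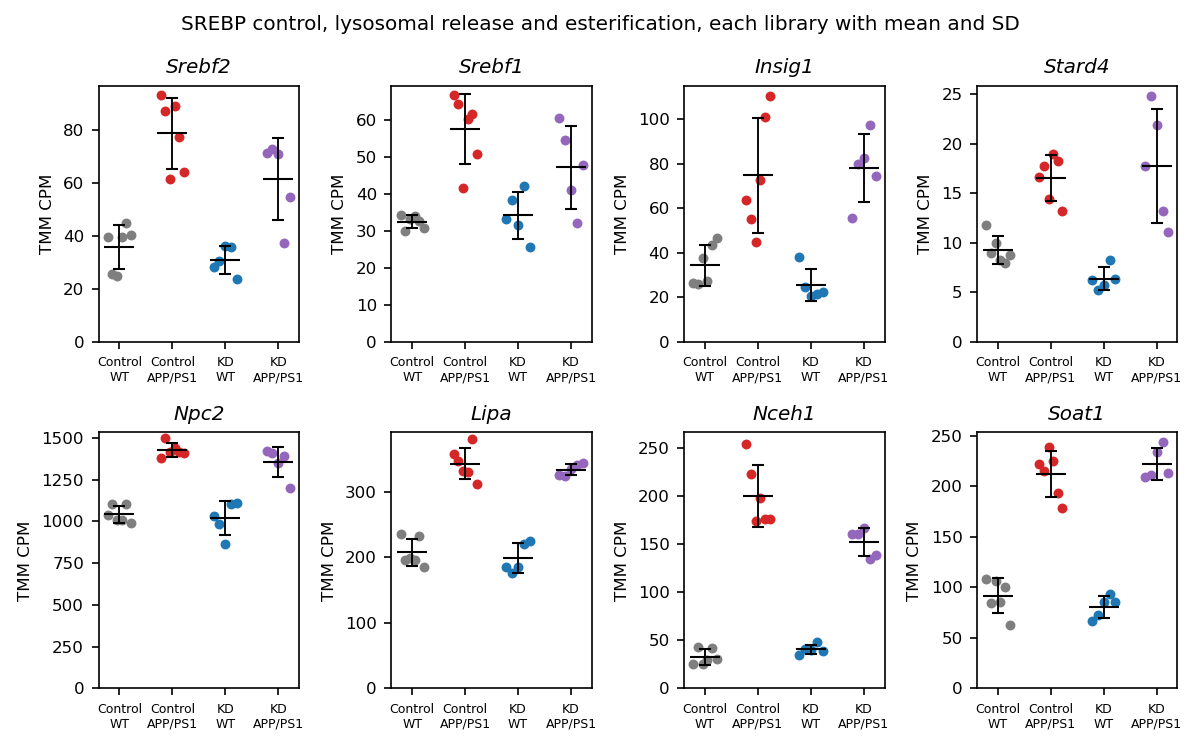
Levels of 8 genes of SREBP control, lysosomal release, transfer and esterification in TMM-scaled CPM (vertical axes, from 0) by group. Each point is a library, and bars give the mean and SD. *Nceh1* lies between 174 and 255 CPM in the 6 Control APP/PS1 libraries and between 25.1 and 43.4 CPM in the 6 Control WT libraries.

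Markers of other cell types were mostly lower in Control APP/PS1 libraries, and their part in the members' values was not tested. The oligodendrocyte sum ran from 741 to 2825 CPM in Control WT and from 366 to 981 CPM in Control APP/PS1 libraries, with 5 of 10 markers lower and 0 higher. The choroid plexus sum ran from 1.62 to 1944 CPM in Control WT and from 1.03 to 5.41 CPM in Control APP/PS1 libraries, in which *Clic6*, *Kcnj13* and *Slc4a5* had no counts, and 9 of its 10 markers were lower. The astrocyte sums overlapped, at 128 to 711 CPM and 151 to 584 CPM, with 1 marker higher and 0 lower. The 13 microglial markers summed to between 52330 and 60340 CPM in Control WT and between 41490 and 47760 CPM in Control APP/PS1 libraries, and 5 were lower. Lower markers also numbered 3 of 9 for neurons, 7 of 10 for endothelium (with 1 higher), 2 of 10 for pericytes and smooth muscle (with 1 higher), 6 of 8 for border-associated macrophages, 5 of 8 for monocytes and neutrophils and 1 of 8 for lymphocytes. Without Control WT libraries 12 and 15, 17 members were again called higher, against 4.23% of all genes.

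The second comparison took the genotype contrast in libraries labelled KD. The group means of the 2 comparisons share no library, but the estimate of spread came from all 22 libraries. In KD APP/PS1 against KD WT libraries, 20 of 31 members were called higher and 0 lower (edgeR), against 9.77% of all genes called higher and 6.41% called lower. With the KD groups alone in the fit, 14 members were called higher, against 4.33% of all genes higher and 1.78% lower. The median log2 fold change was 0.90 over the members and -0.07 over all genes. In 15 members the groups did not overlap, as for 4.18% of all genes. Both comparisons called 16 members, which is 94.1% of the calls in Control mice and 80% of those in KD mice. *Hmgcs1* was called in Control mice alone, and *Fdps*, *Tm7sf2*, *Hsd17b7* and *Ebp* in KD mice alone. Neither called *Acat2*, *Mvk*, *Mvd*, *Lss*, *Nsdhl*, *Scap*, *Insig2*, *Mbtps1*, *Mbtps2* or *Npc1*. Across the 30 members other than *Fdps*, the log2 fold changes of the comparisons had a Pearson r of 0.80, a description across genes that are not independent.

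In the arm from acetyl-CoA to squalene 4 of 8 enzymes were called. *Pmvk* rose by 1.27 ± 0.25, *Idi1* by 1.46 ± 0.26 and *Fdft1* by 0.90 ± 0.19 (log2, SE), with adjusted p of 0.00137, 0.000571 and 0.00225. *Fdps* was the other one. In the synthesis arm after squalene 8 of 10 enzymes rose. *Sqle* was at 0.976, 1.10, 1.13, 4.80 and 1.19 CPM in KD WT libraries 1, 2, 3, 19 and 22 and at 9.99, 14.8, 15.4, 4.36 and 10.9 CPM in KD APP/PS1 libraries 4, 18, 20, 21 and 23. Library 19 of KD WT was high and library 21 of KD APP/PS1 low, so that the groups overlapped at these 2. The log2 fold change was 2.59 ± 0.46 (SE, adjusted p = 0.000408) and 3.34 without library 19. *Msmo1* was at 49.5, 37.0, 39.2, 55.4 and 57.9 CPM in KD WT and at 75.5, 119, 152, 159 and 103.5 CPM in KD APP/PS1 libraries, with no overlap and 1.35 ± 0.19 (log2, SE, adjusted p = 2.48e-05). *Cyp51* rose by 1.70 ± 0.19 (log2, SE, adjusted p = 1.65e-06), from a mean of 9.77 to 31.8 CPM. *Sc5d* rose by 1.11 ± 0.18 and *Dhcr7* by 0.96 ± 0.13 (log2, SE), with adjusted p of 0.000207 and 2.43e-05.

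*Tm7sf2*, a sterol C14-reductase, was at 3.93, 4.95, 3.54, 9.90 and 11.2 CPM in KD WT and at 9.26, 13.9, 23.3, 17.5 and 18.5 CPM in KD APP/PS1 libraries. Within each genotype libraries 18 to 23 were above libraries 1 to 4, and the genotypes overlapped. Its log2 fold change was 1.30 ± 0.31 (SE, adjusted p = 0.00635), and 0.80 (adjusted p = 0.159) when the contrast was taken within libraries 18 to 23. *Hsd17b7* and *Ebp* had 1.07 ± 0.27 and 0.62 ± 0.16 (log2, SE), and 0.75 and 0.42 within those libraries, where neither was called. With library numbers 18 to 23 as a covariate in edgeR, *Tm7sf2*, *Hsd17b7* and *Ebp* kept their calls. They had 0.93, 0.88 and 0.41 (log2), with adjusted p of 0.0116, 0.0319 and 0.0437. That fit called 19 members higher, against 5.98% of all genes. *Fdps* had no counts in 4 of 5 KD WT libraries and 19 to 61 counts in KD APP/PS1 libraries, and its call (adjusted p = 0.0447) held in 2 of 10 fits that left out a library.

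In SREBP control and uptake the same 8 genes as in Control mice were called. *Insig1* was at 38.3, 24.8, 20.4, 21.6 and 22.5 CPM in KD WT and at 55.6, 79.8, 82.5, 97.5 and 74.6 CPM in KD APP/PS1 libraries, and every KD APP/PS1 library was above every KD WT library. Its log2 fold change was 1.61 ± 0.24 (SE, adjusted p = 6.56e-05). *Nceh1* was at 35.1, 41.3, 39.6, 48.5 and 38.5 CPM in KD WT and at 160.5, 160.4, 167, 135 and 139 CPM in KD APP/PS1 libraries, a 3.75-fold difference or 1.91 ± 0.16 on the log2 scale (SE, adjusted p = 2.51e-08). *Soat1* rose by 1.46 ± 0.13 (log2, SE, adjusted p = 1.24e-07), *Stard4* by 1.48 ± 0.20 (log2, SE, adjusted p = 2.1e-05) and *Srebf2* by 1.00 ± 0.19 (log2, SE, adjusted p = 0.00115). *Lipa* and *Npc2* rose by 0.75 ± 0.10 and 0.41 ± 0.09 (log2, SE), with adjusted p of 1.05e-05 and 0.00211. *Srebf1* passed narrowly, at 0.47 ± 0.16 (SE, adjusted p = 0.0483), and kept its call in 2 of 10 fits that left out a library. The forest plot by genotype sets both comparisons side by side.

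**Figure D3:**
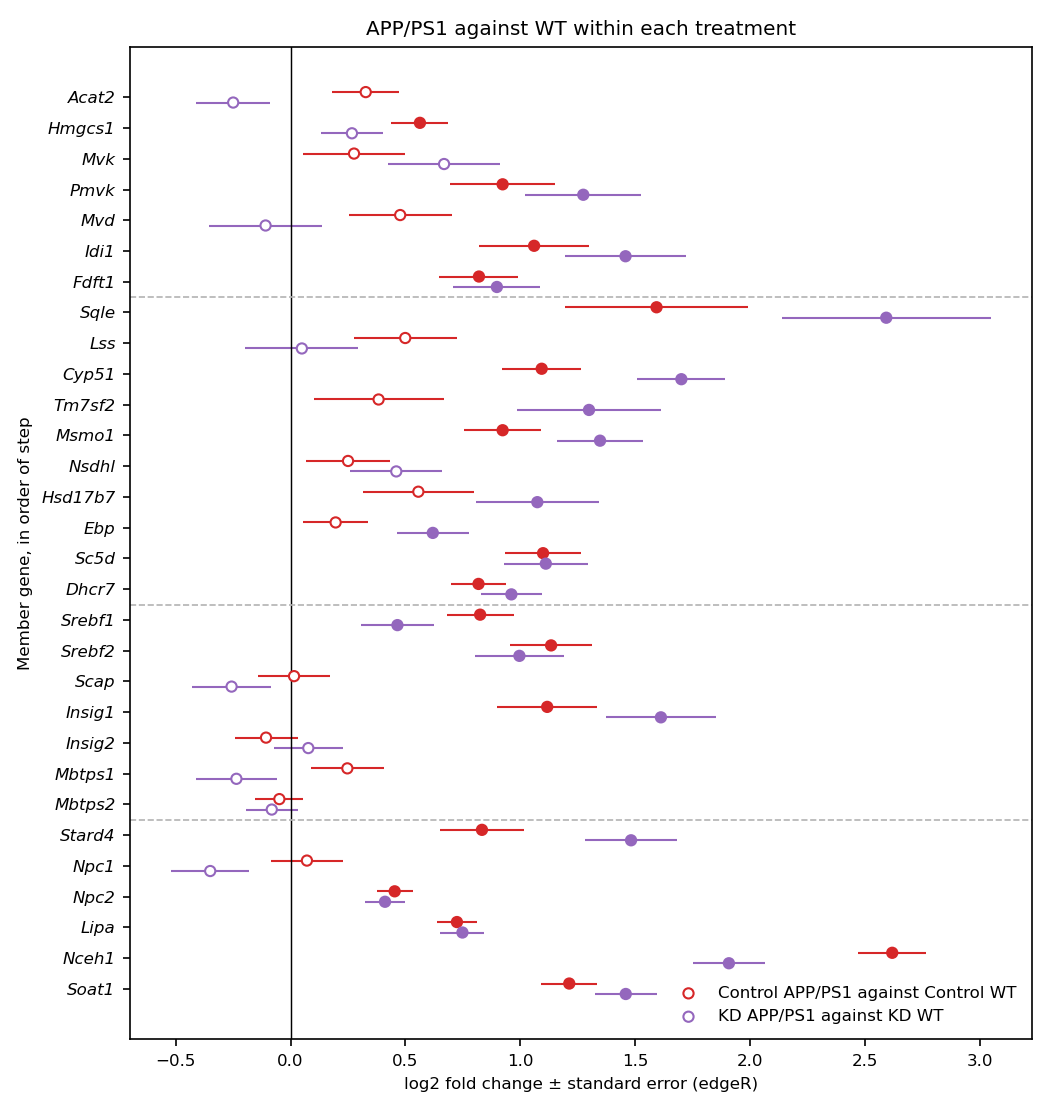
Log2 fold change (horizontal axis) with its standard error for 30 members in order of step (vertical axis, *Fdps* left out), for Control APP/PS1 against Control WT (red) and KD APP/PS1 against KD WT (purple). Filled points passed an adjusted p of 0.05 and dashed lines separate the steps. *Nceh1* lies farthest right in Control mice, at 2.62, and *Sqle* in KD mice, at 2.59.

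Cell-type markers moved with this comparison too, and their part was not tested. In KD APP/PS1 against KD WT libraries 7 of 13 microglial, 3 of 10 oligodendrocyte, 1 of 9 neuronal, 5 of 10 endothelial and 4 of 8 border-associated macrophage markers were lower and 0 higher. For astrocytes 1 of 10 was higher, for pericytes and smooth muscle 1 was higher and 1 lower, and for choroid plexus, monocytes and neutrophils, and lymphocytes 0 were called.

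In the second comparison fold changes went with transcript length. Among 11866 genes at a mean of 1 CPM or more, Spearman's rho between the log2 fold change and the exon length of the canonical transcript was -0.45, against -0.11 in Control mice. The median log2 fold change was 0.54 for genes up to 1491 bp and -0.37 for genes of 4541 bp or more. Among the KD libraries, those numbered 18 to 23 against those numbered 1 to 4, with genotypes weighted equally, gave a rho of -0.62. In this last contrast, chosen after the data were seen, 5 members were higher (*Pmvk*, *Tm7sf2*, *Msmo1*, *Ebp* and *Insig2*) and 1 was lower (*Mbtps1*), against 10.4% of all genes called higher and 12.6% called lower. With exon length in the offsets of the model, also chosen after the data were seen, 17 members were called higher in Control mice, against 6.65% of all genes, and 21 in KD mice, against 8.15%. In that fit *Hmgcs1* had 0.42 (adjusted p = 0.00448) and *Mvk* 0.93 (adjusted p = 0.0249) in KD mice, where the fit without length gave 0.27 (adjusted p = 0.179) and 0.67 (adjusted p = 0.0632), and *Fdps* was no longer called (adjusted p = 0.103). The genotype contrast taken within libraries 18 to 23 called 11 members higher, against 2.99% of all genes. The calls of *Pmvk* (0.83), *Fdft1* (0.81), *Sqle* (1.93), *Npc2* (0.27) and *Srebf1* (0.37, log2) were lost there, with adjusted p from 0.0553 to 0.358, as were those of *Fdps*, *Tm7sf2*, *Hsd17b7* and *Ebp*. The one between KD WT libraries 1 to 3 and KD APP/PS1 library 4, in which the lone library is assumed to vary like the others, called 9, against 1.32%. In both, *Cyp51*, *Dhcr7*, *Stard4*, *Lipa*, *Nceh1* and *Soat1* were called higher. The plot of fold change by transcript length shows the trend.

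**Figure D4:**
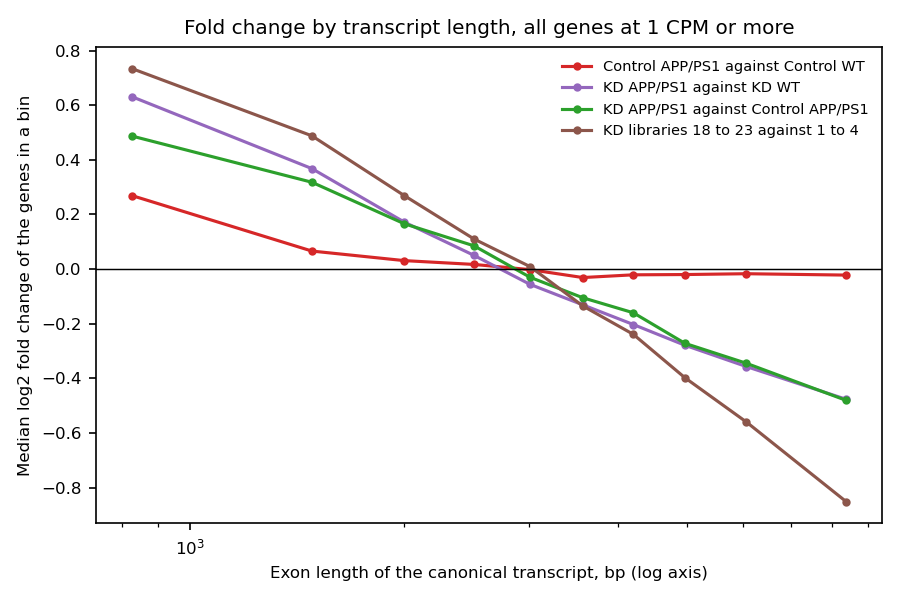
Median log2 fold change (vertical axis) of all genes at a mean of 1 CPM or more in 10 bins of exon length of the canonical transcript (horizontal axis, log scale, in bp), for 4 contrasts. The line of KD libraries 18 to 23 against 1 to 4 falls from 0.73 in the shortest bin to -0.85 in the longest, and that of Control APP/PS1 against Control WT from 0.27 to -0.02.

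Comparisons within each genotype asked how the libraries labelled KD differed from Control libraries of the same genotype. In KD WT against Control WT, edgeR called 0 members and 0% of all genes, and 6 members had an unadjusted p below 0.05, against 5.92% of all genes. DESeq2 called 6 genes higher and 4 lower over the whole table, with 0 members among them, and limma called 1 gene higher. With edgeR, KD WT libraries 19 and 22 alone gave 7 genes higher and 31 lower and libraries 1 to 3 alone 1 lower, with 0 members among them. The members with an unadjusted p below 0.05 were *Acat2* (0.39), *Fdps*, *Sqle* (-1.09), *Cyp51* (-0.42), *Stard4* (-0.55) and *Nceh1* (0.32), in log2 units, with adjusted p from 0.715 to 0.819. For *Sqle*, 4 of 5 KD WT libraries lay between 0.976 and 1.19 CPM, below the lowest Control WT library at 2.13 CPM, and library 19 was at 4.80 CPM. The approximate 95% interval of its log2 difference was -1.92 to -0.26, and the value was -1.85 without library 19 and -0.72 without Control WT library 12. For *Lipa* and *Npc2* the intervals were -0.24 to 0.12 and -0.19 to 0.13, both short of their genotype differences of 0.72 and 0.45 in Control mice.

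In KD APP/PS1 against Control APP/PS1, edgeR called 0 members and 0% of all genes, and 5 members had an unadjusted p below 0.05, against 20.6% of all genes. They were *Hmgcs1* (-0.28), *Msmo1* (0.42), *Ebp* (0.47), *Mbtps1* (-0.52) and *Nceh1* (-0.40), with adjusted p from 0.205 to 0.227. *Nceh1* was at 135 to 167 CPM in KD APP/PS1 and at 174 to 255 CPM in Control APP/PS1 libraries, so that the groups did not overlap although the adjusted p was 0.205. DESeq2 called 449 genes higher and 131 lower, among them *Ebp* higher and *Mbtps1* lower (adjusted p = 0.0495 for both), and limma called 2 genes lower. Without KD APP/PS1 library 4, edgeR called *Ebp* and *Msmo1* higher and *Mbtps1* lower, with 0.57, 0.55 and -0.67 (log2) and adjusted p of 0.0202, 0.0285 and 0.0202. That fit called 1373 of 18700 genes higher (7.34%) and 1696 lower (9.07%), so with edgeR this library decided whether any gene passed, and the members called, 2 higher and 1 lower of 31, were no larger a share than among all genes. Among 11866 genes at a mean of 1 CPM or more, rho between the fold change and exon length was -0.58 in this comparison. With exon length in the offsets of the model, edgeR again called 0 genes. In that fit 9 members had an unadjusted p below 0.05 in place of 5, against 2999 of all 18759 genes. The choroid plexus sum was 2.29 to 486 CPM in KD APP/PS1 libraries, against at most 5.41 CPM in Control APP/PS1 libraries. With the library numbers 18 to 23 as a covariate, *Msmo1* had -0.08 in place of 0.42 and *Ebp* 0.014 in place of 0.47. *Mbtps1* had -0.17 in place of -0.52, and 5 of 31 members were above 0 in place of 16. No Control library is numbered 18 to 23. These values therefore rest on KD APP/PS1 library 4 and on a shift estimated among KD libraries of both genotypes.

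The test of the difference between the genotype effects asked whether APP/PS1 acted differently in KD and Control mice. It called 0 members and 0% of all genes (edgeR), and 6 members had an unadjusted p below 0.05, against 9.08% of all genes. DESeq2 called 18 genes higher and 7 lower, with 0 members among them, and limma called 1 gene lower. The 6 members were *Acat2* (-0.58), *Fdps*, *Cyp51* (0.61), *Tm7sf2* (0.92), *Stard4* (0.65) and *Nceh1* (-0.71), each with an adjusted p of 0.544. Among 11866 genes at a mean of 1 CPM or more, rho between this log2 difference and exon length was -0.51. The median was 0.38 for genes up to 1491 bp and -0.35 for genes of 4541 bp or more. With exon length in the offsets of the model, edgeR again called 0 genes. For *Hmgcs1*, called in Control mice alone, the difference was -0.30 ± 0.18 (log2, SE, adjusted p = 0.551). A difference between the treatments in its genotype effect was thus not shown. The forest plot by treatment gives all members.

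**Figure D5:**
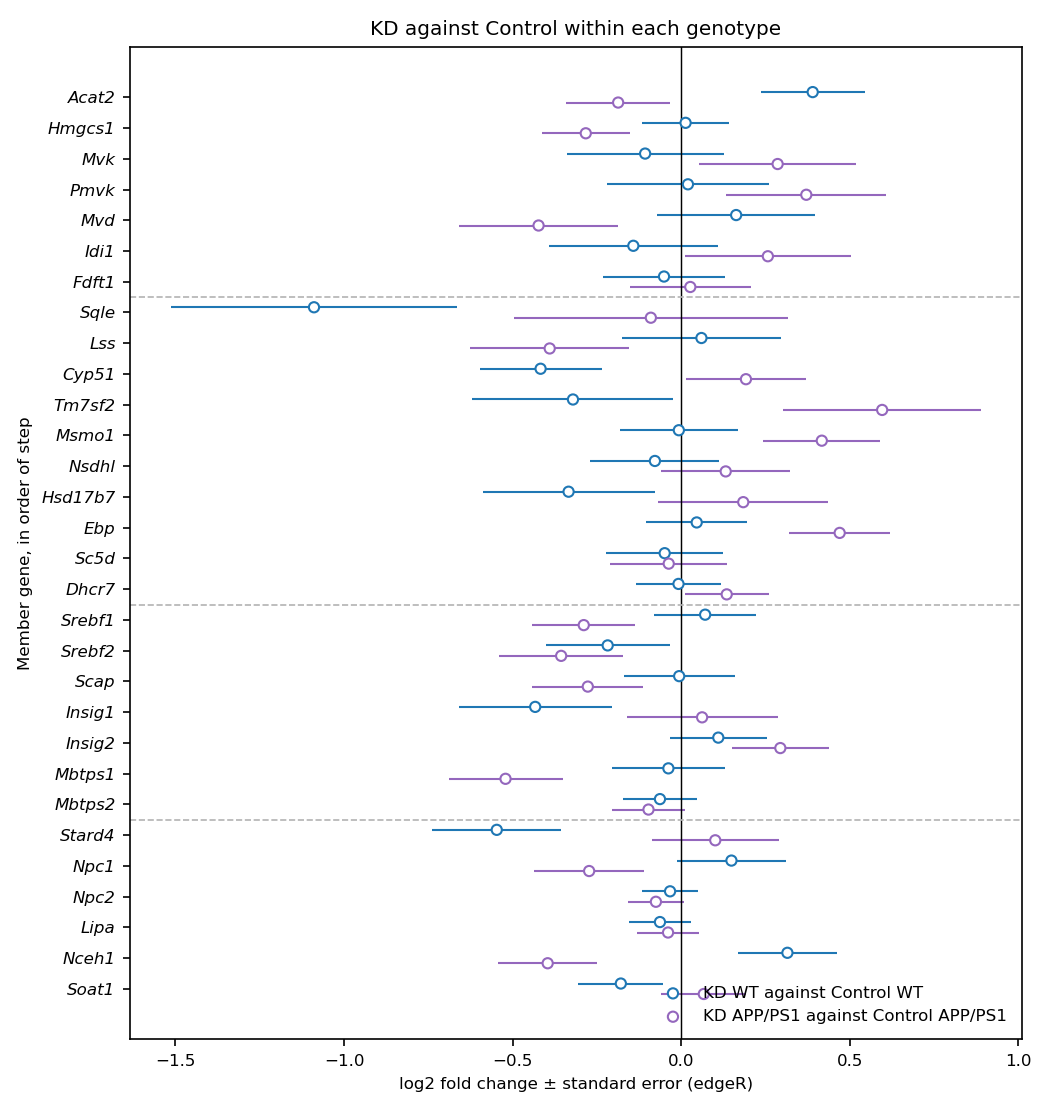
Log2 fold change (horizontal axis) with its standard error for 30 members in order of step (vertical axis, *Fdps* left out), for KD WT against Control WT (blue) and KD APP/PS1 against Control APP/PS1 (purple). Open points did not pass an adjusted p of 0.05, which holds for every member in both comparisons. *Sqle* in WT mice lies farthest left, at -1.09.

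The members also varied between libraries of the same group, and not as a single block. Over the 22 libraries, after each group's mean log2 CPM was subtracted, the median Pearson r between pairs of synthesis genes other than *Fdps* was 0.26 (136 pairs, from -0.62 to 0.77), and between pairs of SREBP control genes it was 0.00 (21 pairs, from -0.71 to 0.81). *Hmgcs1*, *Npc1*, *Scap* and *Mbtps1* went together, with r from 0.79 to 0.87 over 6 pairs. *Ebp*, *Insig2*, *Msmo1*, *Pmvk* and *Tm7sf2* went together too, with r from 0.50 to 0.89 over 10 pairs, and the r between the sets ran from -0.745 to -0.36. The canonical transcripts of the first set had 4097 to 5317 bp of exon and those of the second 1194 to 2789 bp. These sets were chosen after their values were seen, the points share libraries and depth, and the values are descriptions. *Srebf2* was most like *Scap* (r = 0.69), and *Sqle* most like *Srebf2* (r = 0.61). Marker sums were ranked only against the synthesis genes other than *Fdps*. Among these, the choroid plexus sum had its highest r with *Tm7sf2* (0.60), and r was 0.56 with *Sqle*. The highest r of the astrocyte sum was with *Sqle* (0.51), of the border-associated macrophage sum with *Hmgcs1* (0.69) and of the microglial sum with *Ebp* (0.65). With *Insig1*, of SREBP control, the astrocyte sum had an r of -0.53.

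Other genes of the pathway, from lists of related steps, gave a wider frame. *Scarb1*, a lipoprotein scavenger receptor, rose in Control APP/PS1 against Control WT libraries (edgeR), from a median of 25.6 to 65.7 CPM (1.32 ± 0.14 on the log2 scale, SE, adjusted p = 5.38e-07), and by 1.26 (log2) in KD mice. *Scarb2*, a lysosomal membrane protein, fell by 0.31 in log2 units among Controls (adjusted p = 0.0499), and *Scarb2* and *Sort1* fell in KD mice. Among 7 oxysterol enzymes 2 rose in both comparisons, against 5.99% of all genes in Control mice and 9.77% in KD mice. *Ch25h*, cholesterol 25-hydroxylase, whose product restrains SREBP processing, went from a median of 3.91 CPM to 100.2 CPM in Control mice and from 4.71 CPM to 107 CPM in KD mice, log2 fold changes of 3.91 ± 0.57 and 4.19 ± 0.63 (SE, adjusted p = 3.63e-05 and 6.97e-05). *Ephx1* rose by 1.08 and 1.30 (log2).

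Not every neighbouring gene moved with the members, and the small counts below stand against 5.99% of all genes higher and 4.48% lower in Control mice, and 9.77% and 6.41% in KD mice. Of 7 other synthesis genes, 0 rose and 2 fell in each genotype comparison: *Lbr*, a nuclear envelope protein with sterol C14-reductase activity, by 0.65 and 0.76, and *Acat1*, the mitochondrial thiolase, by 0.33 and 0.51 on the log2 scale. Of 10 genes of sterol-regulated degradation and sensing, 0 rose, while 3 fell in Control mice (*Lpcat3*, *Erlin2* and *Rnf139*) and 4 in KD mice (*Lpcat3*, *Rnf145*, *Prkaa1* and *Erlin1*). Of 14 fatty acid genes under SREBP-1, 4 rose and 0 fell in Control mice (*Elovl5*, *Acaca*, *Fasn* and *Scd2*), led by *Acaca*, acetyl-CoA carboxylase, at 3.04 ± 0.40 (log2, SE, adjusted p = 9.68e-06). In KD mice 2 of these rose (*Elovl5* and *Acaca*) and 3 fell (*Fads1*, *Scd1* and *Gpam*). Of 13 genes of sterol transfer between membranes, 4 rose in Control mice (*Gramd1a*, *Tmem97*, *Tspo* and *Lamp2*), while 3 rose and 2 fell in KD mice. Of 12 genes of the isoprenoid branch, 1 rose in Control mice (*Dhdds*) and 2 in KD mice (*Coq2* and *Rce1*).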

How the data were processed

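Bulk RNA-seq of 23 libraries was analysed. The authors trimmed reads with Trim Galore 0.6.7 and counted them with STAR, and their DESeq2 was 1.36.0. The deposited raw table holds whole-number read counts per gene. A second deposited table holds signal, the counts divided by 1 size factor per library by the authors, and served for an alternative. The authors removed 1 Control APP/PS1 sample as an outlier. Library 10 was taken to be that sample, since it is the only one of its group absent from their heat map, and was left out here except in an alternative. Totals ran from 31128643 to 54872491 counts, and low genes such as *Fdps* are limited by counting error.

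Genes that reached 5 counts in 3 or more libraries were tested with edgeR 4.0.16 (TMM, quasi-likelihood test, all 4 groups in 1 model, R 4.3.3), with Benjamini-Hochberg adjustment over all genes and a threshold of 0.05. Standard errors were derived from the F statistic, and approximate 95% intervals from them. Functions were tested on simulated data. DESeq2 1.42.0 and limma 3.58.1 were alternatives, as were other scalings, filters and left-out libraries. Library numbers name samples, and nothing in the labels says that they mark a batch. Exon lengths and coordinates came from GENCODE M39 (GRCm39), whereas the authors used M31.

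The members and lists were chosen with earlier results of these data known. All members are accounted for, with values for those past the threshold, and where none passed for those with an unadjusted p below 0.05. Of the other lists, up to 3 called genes each, the largest in absolute fold change among those averaging 1 CPM or more, were eligible for values. A result of the list of uptake receptors is not reported here.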

Additional observations from a re-analysis of the deposited data

Results flagged for a closer look

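In 124 sets of values (31 genes in 4 groups), 7 had a library that stood apart from the rest of its group by Dixon's test at 95%, where chance gives about 1 in 20. *Sqle* was at 8.37 CPM in Control WT library 12, against 2.13 to 3.46 CPM in the other 5, and at 4.80 CPM in KD WT library 19, against 0.976 to 1.19 CPM in the other 4. These libraries had the highest choroid plexus sums of their groups, 1944 and 780.5 CPM, and the part of those cells was not tested. Other libraries with such sums did not stand apart in *Sqle*. Control WT library 15 had a sum of 1004 CPM with *Sqle* at 3.46 CPM, and KD WT library 22 had 436 CPM with 1.19 CPM. KD APP/PS1 library 23 had the highest sum of its group, 486 CPM, with *Sqle* at the group median of 10.9 CPM. *Insig1* was at 38.3 CPM in KD WT library 1, against 20.4 to 24.8 CPM. *Dhcr7* was lowest in Control APP/PS1 library 11 at 46.2 CPM, against 57.9 to 64.5 CPM, and *Mbtps2* in KD APP/PS1 library 23 at 45.0 CPM, against 55.1 to 59.1 CPM. *Fdps* was at 0.236 CPM in KD WT library 3, with 0 in the other 4, and at 1.96 CPM in KD APP/PS1 library 23, against 0.518 to 0.626 CPM.

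Control APP/PS1 library 10, which was left out of the comparisons above, had 23 of the 31 members above every Control WT library, including 16 of the 17 members called in Control mice. Of all 18759 genes, 26.7% were above every Control WT library in this sample. On a scaling over all 23 libraries, it lay within the range of the other 6 Control APP/PS1 libraries for 12 members, above it for 12 and below it for 7. *Msmo1* at 173 CPM, *Ebp* at 139 CPM and *Tm7sf2* at 21.5 CPM were above that range, and *Npc1* at 124 CPM, *Mbtps1* at 44.3 CPM and *Scap* at 32.0 CPM were below it.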

How the results depend on the processing

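In Control APP/PS1 against Control WT, all 17 members called stayed called in each of 12 fits that left out a library and in each of 9 other alternatives, fold limit aside. With a log2 fold change above 1 required as well, 8 members remained of these and 13 in KD mice, against 2.8% and 3.91% of all genes higher. In KD APP/PS1 against KD WT, 18 of 20 members were called in all 10 fits without a library, and 6 of 20 in every other alternative (*Cyp51*, *Dhcr7*, *Stard4*, *Lipa*, *Nceh1* and *Soat1*). The count higher was 11 within libraries 18 to 23 and 9 within libraries 1 to 4, where fewer libraries carry the contrast. The count lower lay between 0 and 1 without single libraries (*Npc1*, -0.46, without KD APP/PS1 library 4). In KD APP/PS1 against Control APP/PS1, DESeq2 called 1 member higher and 1 lower, and without single libraries the counts ran from 0 to 2 higher and from 0 to 1 lower. Over all genes these ran from 0 to 1373 higher and from 0 to 1696 lower, the highest without KD APP/PS1 library 4. The cause was not tested.

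Counts over all genes moved more than the members' counts. In Control mice, 1124 higher and 841 lower became 1974 and 1267 with the compared groups alone, 2079 and 1342 with limma, and 1238 and 1306 with DESeq2, while 497 were lower without Control WT libraries 12 and 15. In KD mice, 1832 higher and 1202 lower became 738 and 303 with the compared groups alone, 1121 and 652 with the covariate, 2467 and 1947 with limma, 561 and 393 within libraries 18 to 23, and 248 and 42 within libraries 1 to 4. Without single libraries they ran from 1248 to 2475 higher and from 728 (without KD WT library 2) to 2352 lower (without KD APP/PS1 library 4).

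Some directions turned, each for a value not past the threshold in the fit reported. In Control mice *Scap* (0.015) became -0.023 with DESeq2 and with its size factors, -0.007 with limma, -0.031 with at least 10 counts in every sample, -0.078 with library 10, and ran from -0.02 to 0.075 without single libraries. *Npc1* became -0.03 with library 10, *Mbtps2* ran from -0.108 to 0.03 without single libraries, turning without Control WT library 8, and the uncertain value of *Fdps* (-0.54) became 0.275 with limma and 0.409 without Control WT libraries 12 and 15. *Msmo1* in KD APP/PS1 against Control APP/PS1 became -0.082 with library numbers 18 to 23 as a covariate. No Control library has these numbers, so that value rests on KD APP/PS1 library 4 and on a shift among KD libraries. The fits with exon length and within libraries 1 to 4 were chosen after seeing the data. No paired analysis was possible because no library number is shared between groups.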
